A study of Mus musculus with 15 samples.

Results

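The 41 genes described here mark endothelial cells or drive the growth of blood vessels. They were chosen by gene symbol, with earlier results of these data known, and all 41 were found among the 36653 gene identifiers of the table. The table holds RNA sequencing of heart ventricle from wild-type C57BL/6 mice aged 10 weeks, with 5 libraries in each of 3 groups that the labels call biological replicates. The AngII plus OA mice carried a subcutaneous pump delivering angiotensin II at 1000 ng/kg/min and were given oleic acid (OA) daily, each mouse taking 160 mg/kg in a volume of 0.3 mL. Oleic acid is a fatty acid with a single double bond, found in olive oil. The AngII mice carried the same pump without oleic acid, and the vehicle mice received saline. Angiotensin II is a peptide hormone that raises blood pressure and loads the heart. The sources used here give neither the length of treatment nor the sex of the mice, and no group given oleic acid alone is analysed here. Values are FPKM, fragments per kilobase of gene length and per size of library, as deposited, so levels can be compared between genes per length.

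Capillaries run beside nearly every cardiomyocyte, and endothelial cells are among the most numerous cells of the heart. They receive vascular endothelial growth factors (VEGFs) from muscle and stromal cells through receptor tyrosine kinases, and a sprouting tip cell restrains its neighbours through Delta and Notch. The angiopoietins and their Tie receptors hold the vessel wall stable, and the apelin receptor guides new vessels. In bulk ventricle RNA, fewer endothelial cells and less of a transcript in each cell cannot be told apart.

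The FPKM denominators, a measure of depth that whole reads gave back, were 24.47 to 28.27 M reads per library. With summed exon lengths of GENCODE M21, 86.5% of 28866 genes gave whole reads within a tolerance of 0.02, as did 38 of the 41 genes described here. Behind the levels stood from 0 to 216 reads per library for Selp at the low end (median 15; 30 for Sele, with 9 to 193) and from 26847 to 75917 reads for Fabp4 at the high end. Mitochondrially encoded transcripts took 38.6% to 47.0% of the FPKM total in AngII plus OA, 34.5% to 48.3% in AngII and 44.6% to 50.02% in vehicle hearts. The highest AngII share was that of replicate 2, and the other AngII libraries held 42.8% or less. Results with these genes left out of the scaling are given below. The endothelial markers Cdh5, Pecam1, Kdr, Tie1, Emcn and Egfl7 were above 0 in all 15 libraries, with summed levels of 182 to 255 FPKM in AngII plus OA, 222 to 296 FPKM in AngII and 190 to 261 FPKM in vehicle hearts. One library, AngII replicate 2, stood apart. Its 5 atrial muscle markers summed to 3046 FPKM, against 750 FPKM or less in every other library. Its 12 cardiomyocyte markers summed to 17551 FPKM, against 28589 FPKM or more elsewhere. Its 8 adipocyte markers summed to 323 FPKM, against 126 FPKM in AngII replicate 4 and 36.3 FPKM or less in the other 13. The part of these tissues in the results was not tested. Many results rest on this library, and only some of them are given with and without it.

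No gene of the 41 passed the test in any comparison. The test was limma on log2(FPKM + 1) over the 13121 genes with a mean of at least 0.5 FPKM, with p-values adjusted over all of them and a call at an adjusted p under 0.05. Of the 41 genes, 40 passed that filter, and Selp, with a mean of 0.257 FPKM, did not. For AngII against vehicle hearts, 0 of 40 were called, where 1.50% of all genes tested were. The smallest limma adjusted p among the 40 was 0.115, for Sox17. At an unadjusted p under 0.05, limma gave 5 of the 40 higher in AngII hearts and none lower (12.5%), against 16.6% of all genes tested in either direction, 13.3% higher and 3.29% lower. Between AngII plus OA and AngII hearts, 0 of 40 were called, where 0% of all genes were. At an unadjusted p under 0.05, limma gave 6 of the 40 lower and none higher (15%), against 6.60% of all genes in either direction, 1.35% higher and 5.25% lower. Between AngII plus OA and vehicle hearts, 0 of 40 were called beside 0% of all genes, and at an unadjusted p under 0.05 limma gave 0 of the 40, against 3.36% of all genes, 2.58% higher and 0.785% lower. These comparisons share libraries: the AngII libraries enter both AngII against vehicle and AngII plus OA against AngII, so that a high AngII value makes the AngII difference positive and the oleic acid difference negative at once.

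The median log2 difference of the 40 genes was 0.19 for AngII minus vehicle, beside 0.07 over all genes tested, and 29 of 40 were positive (72.5%, against 65.7% of all genes). The median was -0.23 for AngII plus OA minus AngII, beside -0.05, and 11 of 40 were positive (27.5%, against 36.6% of all genes). It was -0.02 for AngII plus OA minus vehicle, beside 0.02, and 18 of 40 were positive (45%, against 58.3% of all genes). These counts moved with the scaling. For AngII minus vehicle, 25 of 40 were positive after quantile normalization, 26 with all libraries at 1 median and 26 with mitochondrially encoded genes left out of the scaling, and for AngII plus OA minus AngII 15, 15 and 11 were, while the median over all genes for AngII minus vehicle came to -0.01, -0.01 and 0.01. A single gene's difference had a 95% confidence interval that reached, at the median, 0.44 on the log2 scale to either side. The width differed between genes: for AngII minus vehicle, the interval ran from 0.09 to 0.50 for Flt4 and from -0.69 to 1.01 for Sox18. With 5 libraries a group, differences smaller than a gene's own interval width could be missed. The plot of fitted differences shows this width beside each estimate.

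**Figure D1:**
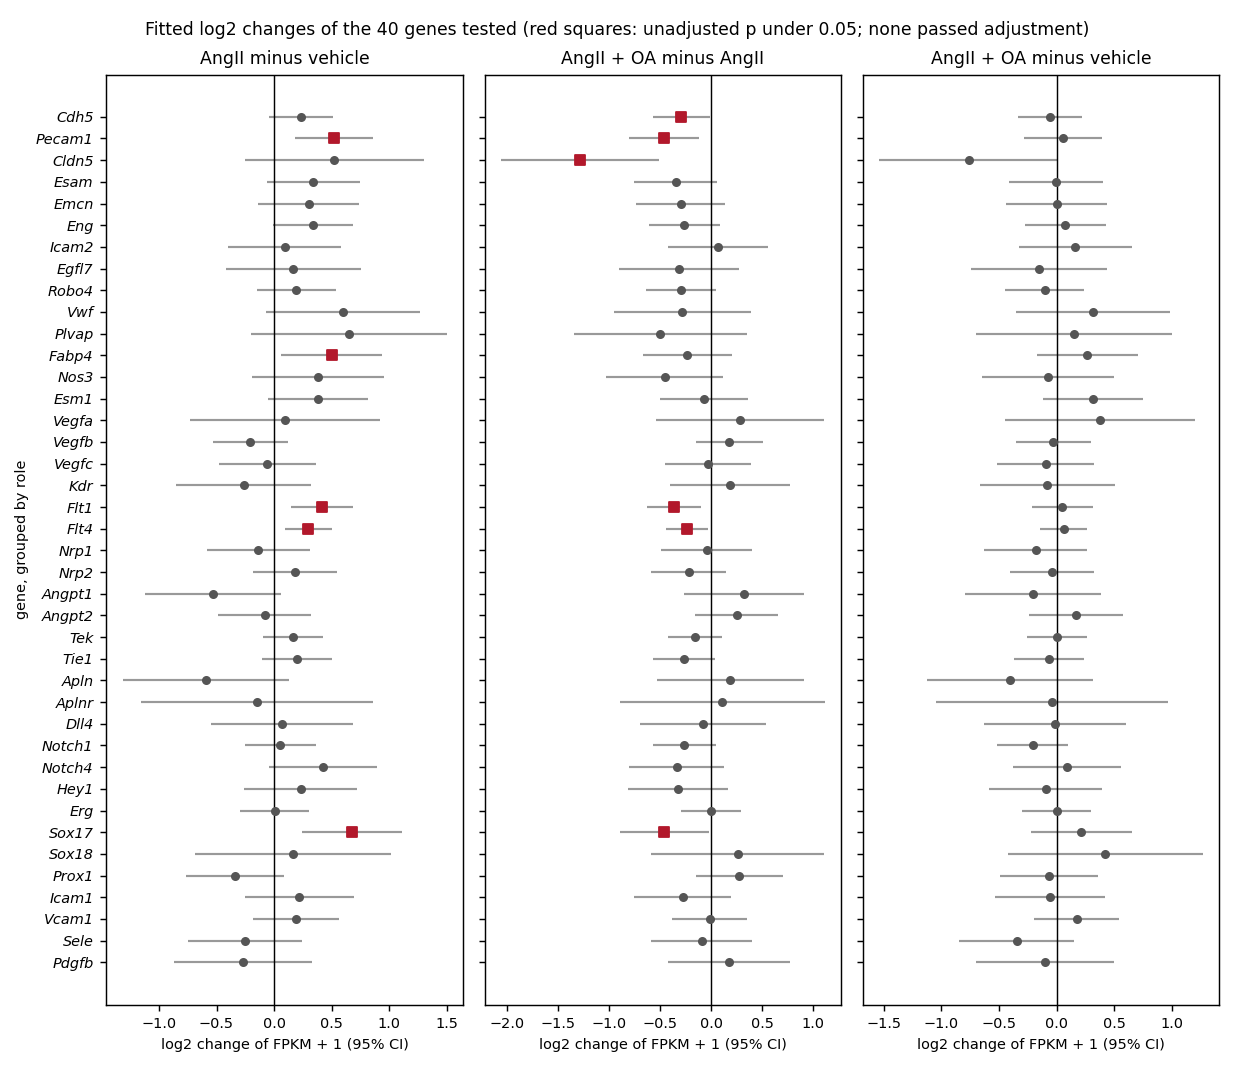
Fitted differences in log2(FPKM + 1) for the 40 genes tested, grouped by role, with bars for 95% confidence intervals; panels show AngII minus vehicle, AngII plus OA minus AngII, and AngII plus OA minus vehicle. Red squares mark an unadjusted p under 0.05 (5, 6 and 0 genes), and most intervals cross 0.

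Vegfb and Vegfa were, after Fabp4, the most abundant of the 41 genes. Vegfb, a ligand of VEGF receptor 1 that heart muscle makes, averaged 121 ± 18.1 FPKM in AngII plus OA, 107 ± 18.2 FPKM in AngII and 123 ± 22.9 FPKM in vehicle hearts (SD, n = 5 each). Vegfa, the main angiogenic ligand, was at 84.7, 156, 97.1, 158 and 94.4 FPKM in the AngII plus OA libraries, 82.3, 28.7, 119.8, 185 and 134 FPKM in the AngII libraries and 134, 71.4, 108, 75.8 and 65.4 FPKM in the vehicle libraries; here and below, values run from replicate 1 to replicate 5. The lowest and the highest Vegfa levels both lay in the AngII group, in replicates 2 and 4, and the 3 groups overlapped. The fitted Vegfa differences were 0.09 (SE 0.39) for AngII minus vehicle and 0.28 (SE 0.39) for AngII plus OA minus AngII. Without AngII replicate 2 they were 0.51 (SE 0.27) and -0.13 (SE 0.27), so the second changed sign. Vegfc, the lymphatic growth factor, lay between 2.99 and 5.95 FPKM in AngII plus OA, between 3.53 and 6.32 FPKM in AngII and between 3.13 and 7.52 FPKM in vehicle hearts.

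No VEGF receptor passed the test; the fitted differences for AngII minus vehicle were 0.41 for Flt1, 0.30 for Flt4 and -0.26 for Kdr, and whether they differ from each other was not tested. Flt1 encodes VEGF receptor 1, which binds VEGF-A tightly and signals weakly, Kdr encodes VEGF receptor 2, the main signalling receptor, and Flt4 encodes VEGF receptor 3, which binds VEGF-C. The 250 bases before the start sites of the 3 receptor genes are shown because Kdr parted from Flt1 and Flt4 in AngII replicate 2. They come from RefSeq on GRCm38.p6, another build than the mm8 named in the submitters' processing notes, and capitals mark GGAA or, on the other strand, TTCC, the core bound by ETS factors such as Erg. The windows are chr5:147726012-147726261 (minus strand), chr5:75978456-75978705 (minus strand) and chr11:49609429-49609678 (plus strand).
Flt1: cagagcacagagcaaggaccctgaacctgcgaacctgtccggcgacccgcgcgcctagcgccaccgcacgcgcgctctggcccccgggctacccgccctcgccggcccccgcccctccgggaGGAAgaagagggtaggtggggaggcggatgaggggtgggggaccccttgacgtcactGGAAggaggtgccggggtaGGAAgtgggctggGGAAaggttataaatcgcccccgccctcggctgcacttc
Kdr: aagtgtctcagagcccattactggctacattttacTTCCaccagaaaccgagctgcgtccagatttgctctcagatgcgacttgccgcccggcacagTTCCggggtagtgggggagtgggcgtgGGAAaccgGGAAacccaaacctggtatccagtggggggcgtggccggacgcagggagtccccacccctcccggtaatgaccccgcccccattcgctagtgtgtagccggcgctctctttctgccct
Flt4: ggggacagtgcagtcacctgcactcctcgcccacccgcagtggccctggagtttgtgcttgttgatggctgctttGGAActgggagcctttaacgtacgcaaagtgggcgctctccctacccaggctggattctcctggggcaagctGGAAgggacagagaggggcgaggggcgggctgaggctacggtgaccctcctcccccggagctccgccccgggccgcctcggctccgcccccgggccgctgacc
A script found the core 4 times for Flt1, 4 times for Kdr and 2 times for Flt4, a count that is a description of these windows. Of the 41 genes, 25 had a RefSeq promoter entry in the table used, with 31 windows. The core lay in 93.5% of those windows, against 93.4% of 32851 windows of the same length over all genes. ACAAT, a form of the SOX core, lay in 16.1%, against 27.7% of all windows, and ACGTG, a form of the hypoxia response core, in 3.23%, against 16.6%. Other forms of these cores were not searched, so the shares do not count all such sites. ACAAT and ACGTG were searched on both strands, either can share bases with a GGAA match, and a match is a description and not a bound site.

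Flt1 was at 13.4, 13.8, 12.3, 15.0 and 10.2 FPKM in the AngII plus OA libraries, 16.2, 17.6, 16.3, 18.3 and 15.6 FPKM in the AngII libraries and 15.1, 10.3, 15.2, 11.9 and 10.2 FPKM in the vehicle libraries. All 5 AngII libraries lay above all 5 AngII plus OA libraries and above all 5 vehicle libraries, while AngII plus OA and vehicle hearts overlapped. The fitted difference was 0.41 (SE 0.13) for AngII minus vehicle, with a limma adjusted p of 0.116, and -0.36 (SE 0.13) for AngII plus OA minus AngII, with a limma adjusted p of 0.706. Leaving out AngII replicate 2 gave 0.40 (SE 0.13) and -0.35 (SE 0.13). Flt1 was also the least variable of the 41 genes among the AngII libraries, with a coefficient of variation of 6.54%.

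Flt4 was at 3.04, 3.32, 2.84, 3.93 and 2.53 FPKM in the AngII plus OA libraries, 4.0, 3.78, 3.30, 4.29 and 3.86 FPKM in the AngII libraries and 3.18, 2.91, 3.16, 2.56 and 2.88 FPKM in the vehicle libraries. Every AngII library lay above every vehicle library, and AngII plus OA replicates 2 and 4 reached into the AngII range. The fitted differences were 0.30 (SE 0.10) and -0.24 (SE 0.10), with limma adjusted p of 0.134 for AngII minus vehicle and 0.737 for AngII plus OA minus AngII. Kdr was at 26.3, 26.3, 22.0, 24.7 and 20.7 FPKM in the AngII plus OA libraries, 29.9, 7.40, 25.1, 24.6 and 28.3 FPKM in the AngII libraries and 26.7, 32.6, 20.03, 25.3 and 23.6 FPKM in the vehicle libraries. Apart from AngII replicate 2, the lowest of all 15, Kdr lay between 20.03 and 32.6 FPKM in every library and the groups overlapped. Its difference of -0.26 (SE 0.28) for AngII minus vehicle became 0.08 (SE 0.13) without that library, and that of 0.18 (SE 0.28) for AngII plus OA minus AngII became -0.16 (SE 0.13). By sign, 3 of 5 receptors and co-receptors were higher in AngII than in vehicle hearts with all libraries, against 65.7% of all genes. The count was 5 of 5, against 72.5% of all genes, without AngII replicate 2. That library was also the lowest for both neuropilin co-receptors. Nrp1 averaged 8.09 ± 1.30 FPKM in AngII plus OA, 8.61 ± 2.63 FPKM in AngII and 9.52 ± 3.02 FPKM in vehicle hearts (SD, n = 5 each), and Nrp2 averaged 4.69 ± 0.603 FPKM in AngII plus OA, 5.84 ± 1.95 FPKM in AngII and 4.86 ± 0.701 FPKM in vehicle hearts (SD, n = 5 each).

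Separation of the groups by all 5 libraries was counted for each gene. Between AngII and vehicle hearts, 3 of 40 genes did not overlap, Flt1, Flt4 and Pecam1, all higher in AngII (7.5%, against 3.80% of all genes tested in either direction, 3.13% higher and 0.663% lower). Flt1 was the 1 of 40 that did not overlap between AngII plus OA and AngII, lower with oleic acid (2.5%, against 1.27% in either direction and 1.04% lower). Apln was the 1 of 40 between AngII plus OA and vehicle, lower in AngII plus OA (2.5%, against 0.838% in either direction and 0.183% lower). The count for AngII against vehicle depended on scaling. It was 0 after quantile normalization (3.06% of all genes), 0 with all libraries brought to 1 median (3.18% of all genes), and 1, Flt4, with mitochondrially encoded genes left out of the scaling (2.73% of all genes), whereas Flt1 and Apln kept their separations in the oleic acid comparisons under those 3 scalings.

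**Figure D2:**
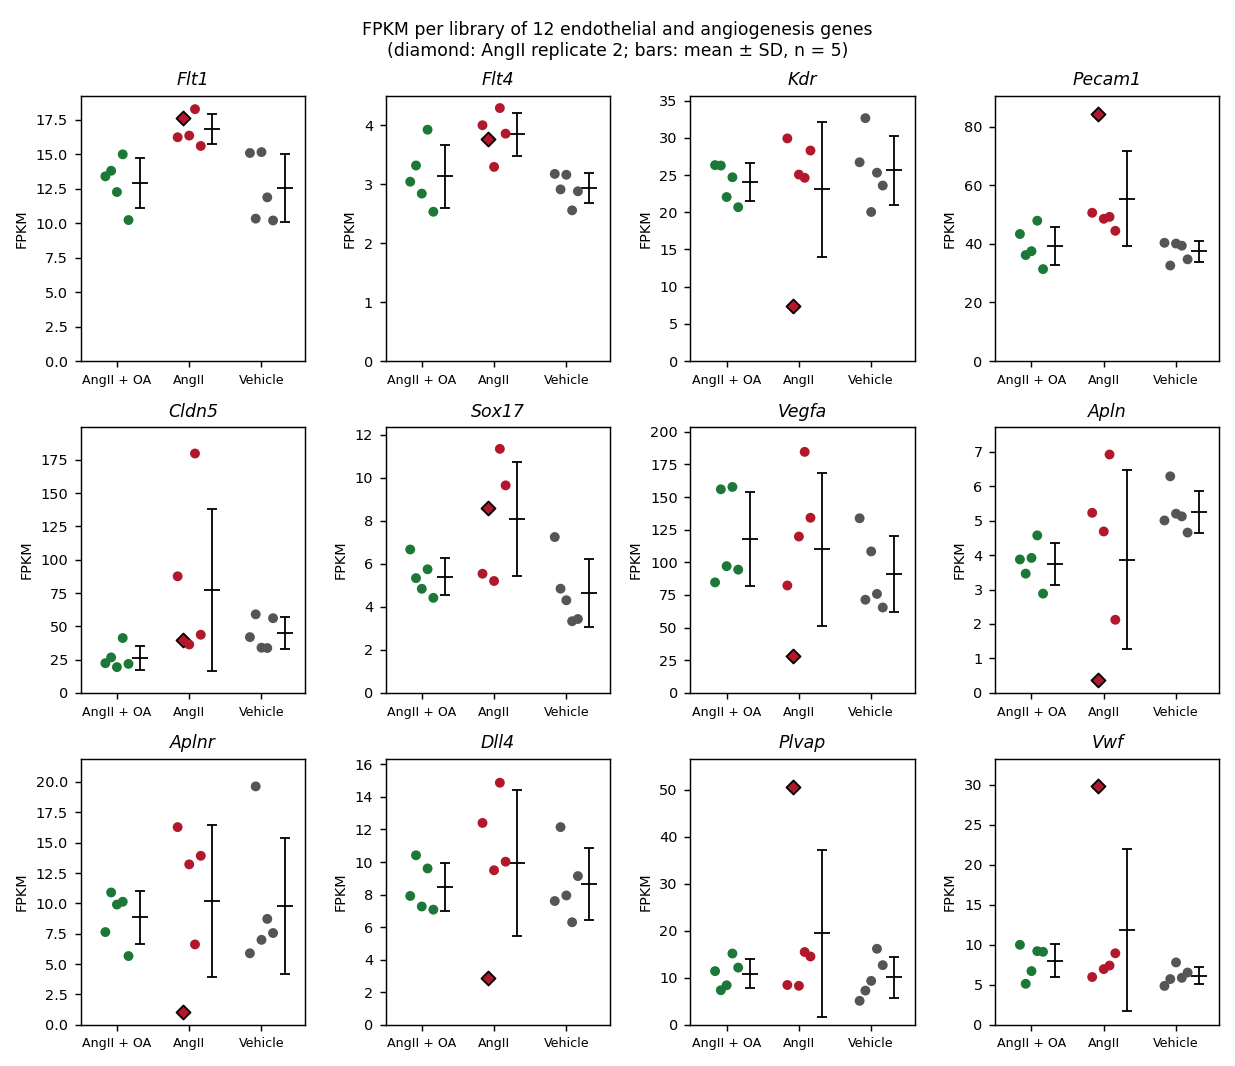
FPKM of 12 of the genes in each library, with AngII plus OA, AngII and vehicle from left to right; points are libraries, the diamond is AngII replicate 2, and bars give the mean ± SD (n = 5). All AngII points of Flt1 lie above both other groups, and the diamond lies far below the other points for Kdr, Vegfa, Apln, Aplnr and Dll4 and far above them for Plvap and Vwf.

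The genes of endothelial identity and junctions were higher in AngII than in vehicle hearts in 14 of 14 cases by sign, with a median log2 difference of 0.36, none of them called. Over all genes tested, 65.7% were positive, with a median of 0.07. The count was 13 of 14 after quantile normalization and 14 of 14 under the other scalings. Of the identity genes, 13 of 14 were negative for AngII plus OA minus AngII, with a median of -0.30, and 13 of 14 were negative under each of the 3 other scalings. Over all genes tested, 36.6% were positive there, with a median of -0.05. Against vehicle hearts, 8 of 14 were positive in AngII plus OA, with a median of 0.03, beside 58.3% and 0.02 over all genes. Markers of some other cells moved beside the identity genes by sign. For AngII minus vehicle, 9 of 9 fibroblast, 11 of 11 macrophage and 6 of 6 adipocyte markers tested were positive, with medians of 0.54, 0.38 and 0.69. By contrast, 12 of 12 cardiomyocyte markers were negative, with a median of -0.15. Endocardium (5 of 5), mesothelium (3 of 3) and B cell (2 of 2) markers tested were positive too. Among the rest, 4 of 8 pericyte and smooth muscle, 3 of 5 atrial muscle, 2 of 5 platelet and 1 of 5 red cell markers were positive. For AngII plus OA minus AngII, 8 of 9 fibroblast, 9 of 11 macrophage and 6 of 6 adipocyte markers were negative, with medians of -0.25, -0.17 and -0.47. There 12 of 12 cardiomyocyte markers were positive, with a median of 0.25. Endocardium (4 of 5), pericyte and smooth muscle (5 of 8), atrial muscle (5 of 5), mesothelium (3 of 3) and B cell (2 of 2) markers were negative. Platelet (5 of 5) and red cell (4 of 5) markers were positive. By summed FPKM, the 8 adipocyte markers had medians of 28.8 in AngII plus OA, 13.4 in AngII and 19.4 in vehicle hearts. AngII replicates 2 and 4, at 323 and 126 FPKM, lay above all other libraries. The 12 cardiomyocyte markers had medians of 34355, 32496 and 32755 FPKM in the same order, with AngII replicate 2 the lowest library at 17551 FPKM. The part of these other cells in the differences of the endothelial genes was not tested. Pecam1, an adhesion molecule of endothelial contacts, was at 43.4, 36.2, 37.5, 47.9 and 31.4 FPKM in the AngII plus OA libraries, 50.6, 84.3, 48.6, 49.2 and 44.5 FPKM in the AngII libraries and 40.4, 32.6, 40.1, 39.4 and 34.7 FPKM in the vehicle libraries. Every AngII library lay above every vehicle library, AngII replicate 2 lay far above the rest, and AngII plus OA replicate 4 reached into the AngII range. The difference was 0.52 (SE 0.16) for AngII minus vehicle, with a limma adjusted p of 0.121, and -0.46 (SE 0.16) for AngII plus OA minus AngII, with a limma adjusted p of 0.706. Without AngII replicate 2 these were 0.36 (SE 0.12) and -0.30 (SE 0.12), and the AngII libraries still did not overlap vehicle.

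Cdh5, the cadherin that joins endothelial cells to each other, was at 59.6, 51.9, 57.1, 73.2 and 52.5 FPKM in the AngII plus OA libraries, 78.9, 55.8, 63.8, 89.8 and 75.1 FPKM in the AngII libraries and 62.6, 66.9, 59.5, 55.2 and 61.0 FPKM in the vehicle libraries. AngII replicate 4 was the highest and AngII plus OA replicate 2 the lowest, and the groups overlapped. Its differences were 0.23 (SE 0.13) for AngII minus vehicle and -0.29 (SE 0.13) for AngII plus OA minus AngII. Cldn5, the claudin of endothelial tight junctions, had the largest difference of the 40 genes for AngII plus OA minus AngII. It was at 22.3, 26.7, 19.4, 41.2 and 21.8 FPKM in the AngII plus OA libraries, 87.6, 40.02, 36.3, 179.8 and 43.7 FPKM in the AngII libraries and 41.9, 59.0, 34.0, 33.7 and 56.1 FPKM in the vehicle libraries. AngII plus OA replicates 1, 2, 3 and 5 lay below all AngII and all vehicle libraries, AngII plus OA replicate 4 lay among them, and AngII replicates 4 and 1 were the highest of all. The difference was -1.29 (SE 0.37) against AngII hearts, with a limma adjusted p of 0.706, and -0.76 (SE 0.37) against vehicle hearts. Leaving out AngII replicate 4 brought the first to -0.91, and its range over all libraries left out in turn was -1.48 to -0.91. Cldn5, Angpt1 and Pdgfb were the 3 genes whose FPKM did not give whole reads with the reference exon length.

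Fabp4, a fatty acid carrier of capillary endothelium that adipocytes also make, was the most abundant of the 41 genes. It was at 511, 346, 319, 386 and 361 FPKM in the AngII plus OA libraries, 409, 478, 302, 488 and 618 FPKM in the AngII libraries and 402, 358, 254, 223 and 381 FPKM in the vehicle libraries. AngII replicate 5 was the highest and vehicle replicate 4 the lowest, and the groups overlapped. Fabp4 differed by 0.50 (SE 0.21) for AngII minus vehicle, with a limma adjusted p of 0.232. The 8 adipocyte markers beside it summed to 7.66 to 36.3 FPKM in AngII plus OA, 11.5 to 323 FPKM in AngII and 9.67 to 21.1 FPKM in vehicle hearts, with Adipoq, Plin1, Lep and Retn at 0 in at least 1 library. Within AngII hearts, replicate 5, the highest in Fabp4, had the lowest adipocyte sum, and replicates 4 and 2, next in Fabp4, had the highest sums of all 15 libraries, 126 and 323 FPKM. The part of adipocytes in the Fabp4 level was not tested.

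Plvap forms the diaphragms of endothelial pores and marks endocardium and veins. It was at 11.4, 7.35, 8.41, 15.2 and 12.2 FPKM in the AngII plus OA libraries, 8.47, 50.7, 8.30, 15.5 and 14.5 FPKM in the AngII libraries and 5.09, 7.27, 9.34, 16.2 and 12.7 FPKM in the vehicle libraries. AngII replicate 2 lay far above a range that the other 14 libraries shared. Its difference of 0.65 (SE 0.40) for AngII minus vehicle was 0.23 (SE 0.29) without that library. Vwf, the clotting factor carrier of larger vessels and endocardium, was also highest in that library, at 29.8 FPKM against 4.86 to 10.0 FPKM in the other 14. Its difference was 0.60 (SE 0.32) for AngII minus vehicle with all libraries and 0.22 (SE 0.17) without AngII replicate 2. The 6 endocardium markers, which include both genes, summed to 191 FPKM in that library, against 89.9 FPKM or less in the other 14.

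Nos3, the endothelial nitric oxide synthase, was at 6.07, 5.80, 5.02, 11.03 and 6.16 FPKM in the AngII plus OA libraries, 7.28, 16.8, 5.75, 14.2 and 6.97 FPKM in the AngII libraries and 6.37, 9.31, 6.74, 4.56 and 8.89 FPKM in the vehicle libraries. AngII replicates 2 and 4 and AngII plus OA replicate 4 were the 3 highest, and the groups overlapped. Esm1, a proteoglycan of sprouting tip cells, was at 1.26, 1.94, 1.03, 1.47 and 0.840 FPKM in the AngII plus OA libraries, 1.62, 0.446, 1.35, 1.58 and 2.39 FPKM in the AngII libraries and 0.878, 1.34, 0.410, 0.552 and 1.14 FPKM in the vehicle libraries. Apart from AngII replicate 2, every AngII library lay above every vehicle library, narrowly at the nearest pair (1.35 against 1.34 FPKM). Without that library, 5.68% of all genes tested were higher in AngII without overlap. With AngII replicate 2 left out, the Esm1 difference for AngII minus vehicle was 0.56 (SE 0.17), with a limma adjusted p of 0.101, against 0.38 (SE 0.20) with it. From 22 to 137 reads per library stood behind Esm1. The remaining 6 identity genes spanned levels from Robo4, a guidance receptor that averaged 14.6 ± 2.14 FPKM in AngII plus OA, 18.2 ± 2.67 FPKM in AngII and 16.03 ± 3.89 FPKM in vehicle hearts (SD, n = 5 each), to Eng, a co-receptor of the TGF-beta family that averaged 83.4 ± 11.3 FPKM in AngII plus OA, 103 ± 31.0 FPKM in AngII and 78.9 ± 7.50 FPKM in vehicle hearts (SD, n = 5 each). Their AngII minus vehicle differences lay between 0.09 for Icam2 and 0.34 for Esam.

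**Figure D3:**
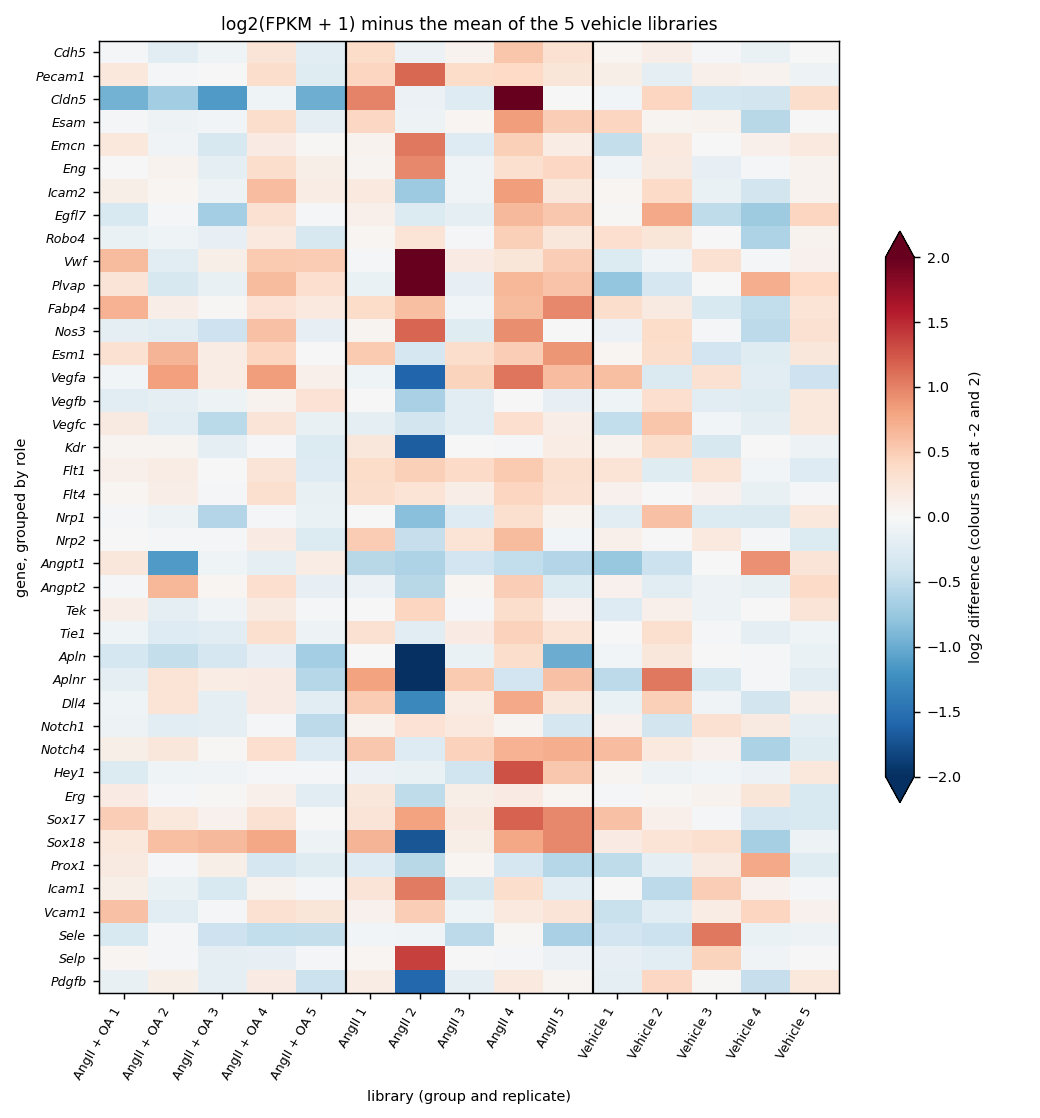
log2(FPKM + 1) of the 41 genes in each library minus the mean of the 5 vehicle libraries; libraries run from AngII plus OA through AngII to vehicle, and colours end at differences of -2 and 2. The deepest blue lies in AngII replicate 2 (Apln and Aplnr), the deepest red in AngII replicate 2 (Vwf and Plvap) and AngII replicate 4 (Cldn5), and AngII replicate 4 is red in most rows.

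The angiopoietins signal through Tek (Tie2), which Angpt1 activates and Angpt2 often blocks. Angpt1, made by pericytes and other stromal cells, was at 7.47, 2.30, 5.76, 5.37 and 6.94 FPKM in the AngII plus OA libraries, 3.93, 3.69, 4.53, 4.10 and 3.78 FPKM in the AngII libraries and 3.28, 4.36, 6.24, 12.5 and 7.63 FPKM in the vehicle libraries. The AngII libraries were tightly grouped near the low end of a range that both other groups spread over. The fitted Angpt1 difference was -0.53 (SE 0.28) for AngII minus vehicle, the second most negative of the 40 genes after Apln, with a limma adjusted p of 0.359. Angpt2, released by activated endothelium, was at 2.20, 4.14, 2.34, 3.08 and 1.89 FPKM in the AngII plus OA libraries, 1.99, 1.2, 2.35, 3.58 and 1.67 FPKM in the AngII libraries and 2.45, 1.80, 2.01, 1.93 and 3.21 FPKM in the vehicle libraries. The groups overlapped, with AngII plus OA replicate 2 the highest and AngII replicate 2 the lowest. The ratio of Angpt2 to Angpt1 had a median of 0.406 (0.272 to 1.80) in AngII plus OA, 0.506 (0.325 to 0.872) in AngII and 0.412 (0.155 to 0.748) in vehicle hearts, overlapping throughout, and no test was made of it. Its highest value came from AngII plus OA replicate 2, which combined the lowest Angpt1 with the highest Angpt2. Angpt1 did not give whole reads with the reference exon length, so the level of the ratio is less certain.

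Tek was at 23.6, 18.9, 20.5, 24.4 and 21.2 FPKM in the AngII plus OA libraries, 21.5, 29.3, 20.9, 27.7 and 23.0 FPKM in the AngII libraries and 17.9, 23.2, 20.05, 21.5 and 26.01 FPKM in the vehicle libraries. All libraries lay between 17.9 and 29.3 FPKM and the groups overlapped, with differences of 0.16 (SE 0.12) for AngII minus vehicle and -0.16 (SE 0.12) for AngII plus OA minus AngII. Tie1, the partner receptor of Tek, averaged 28.9 ± 5.18 FPKM in AngII plus OA, 34.9 ± 5.89 FPKM in AngII and 30.2 ± 4.45 FPKM in vehicle hearts (SD, n = 5 each). The Tie1 differences were 0.20 (SE 0.14) for AngII minus vehicle and -0.26 (SE 0.14) for AngII plus OA minus AngII, and 0.30 (SE 0.13) and -0.37 (SE 0.13) without AngII replicate 2.

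Every AngII plus OA library held less apelin transcript than every vehicle library. Apln, whose peptide is secreted by sprouting endothelium and acts on the receptor Aplnr, was at 3.87, 3.46, 3.92, 4.57 and 2.88 FPKM in the AngII plus OA libraries, 5.23, 0.374, 4.68, 6.92 and 2.12 FPKM in the AngII libraries and 5.0, 6.28, 5.20, 5.12 and 4.65 FPKM in the vehicle libraries. The margin was small at the nearest pair, while the AngII libraries spread from the lowest to the highest of the 15. The fitted difference was -0.40 (SE 0.34) for AngII plus OA minus vehicle, a comparison in which no gene had a limma adjusted p under 0.926. For AngII minus vehicle it was -0.59 (SE 0.34), and -0.20 (SE 0.20) without AngII replicate 2. From 29 to 533 reads per library stood behind Apln. The 250 bases before its RefSeq start site on GRCm38.p6, at chrX:48034854-48035103 (minus strand), are shown because Apln was the 1 of the 40 genes that did not overlap between those groups, where 110 of all 13121 genes tested did not overlap. Capitals mark TTCC, the ETS core read on the other strand, which occurs 3 times.
Apln: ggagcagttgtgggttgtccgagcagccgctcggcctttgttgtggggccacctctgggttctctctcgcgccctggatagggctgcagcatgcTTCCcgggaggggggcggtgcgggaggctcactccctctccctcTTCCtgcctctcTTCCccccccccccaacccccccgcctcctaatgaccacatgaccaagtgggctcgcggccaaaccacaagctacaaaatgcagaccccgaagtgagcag
Neither ACAAT nor ACGTG was found in this window, on either strand. Other forms of these cores were not searched, and nothing about the factors that bind them follows from the missing matches.

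Aplnr was at 7.64, 10.9, 9.90, 10.1 and 5.66 FPKM in the AngII plus OA libraries, 16.3, 1.03, 13.2, 6.62 and 13.9 FPKM in the AngII libraries and 5.89, 19.6, 7.0, 8.72 and 7.56 FPKM in the vehicle libraries. AngII replicate 2 was the lowest of all libraries and vehicle replicate 2 the highest. The groups overlapped, and the difference for AngII minus vehicle was -0.15 (SE 0.47) with AngII replicate 2 and 0.39 (SE 0.30) without it. The difference for AngII plus OA minus AngII was 0.11 (SE 0.47) with it and -0.42 (SE 0.30) without it.

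Of the Notch genes, 4 of 4 were positive for AngII minus vehicle, with a median of 0.15, but 3 of 4 after quantile normalization and 2 of 4 under the other scalings. All 4 of 4 were negative for AngII plus OA minus AngII under every scaling, with a median of -0.29 in the values as deposited. Over all genes tested, 65.7% were positive for AngII minus vehicle and 36.6% for AngII plus OA minus AngII, with medians of 0.07 and -0.05. Dll4, the Delta ligand of tip and arterial cells, was at 7.91, 10.4, 7.27, 9.61 and 7.08 FPKM in the AngII plus OA libraries, 12.4, 2.88, 9.5, 14.9 and 10.0 FPKM in the AngII libraries and 7.60, 12.1, 7.95, 6.30 and 9.14 FPKM in the vehicle libraries. AngII replicate 2 was the lowest library and AngII replicate 4 the highest. Without AngII replicate 2, Dll4 differed by 0.41 (SE 0.17) for AngII minus vehicle and by -0.42 (SE 0.17) for AngII plus OA minus AngII, against 0.07 (SE 0.29) and -0.08 (SE 0.29) with it. Notch1, a receptor of Dll4, was at 1.52, 1.33, 1.36, 1.67 and 0.890 FPKM in the AngII plus OA libraries, 1.84, 2.31, 2.09, 1.80 and 1.14 FPKM in the AngII libraries and 1.87, 1.09, 2.35, 2.05 and 1.35 FPKM in the vehicle libraries. The groups overlapped. Notch4, a receptor that endothelium favours, averaged 6.54 ± 1.13 FPKM in AngII plus OA, 8.71 ± 2.31 FPKM in AngII and 6.31 ± 2.34 FPKM in vehicle hearts (SD, n = 5 each), and Hey1, a transcriptional target of Notch, averaged 5.64 ± 0.457 FPKM in AngII plus OA, 8.13 ± 4.79 FPKM in AngII and 6.10 ± 0.674 FPKM in vehicle hearts (SD, n = 5 each). Notch4 did not overlap between AngII plus OA and AngII once AngII replicate 2 was left out. In that setting 2.28% of all genes tested were lower in AngII plus OA without overlap, against 1.04% with all libraries.

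Sox17, a transcription factor of arterial endothelium, had the smallest p of the 40 genes for AngII minus vehicle. It was at 6.67, 5.34, 4.84, 5.75 and 4.42 FPKM in the AngII plus OA libraries, 5.54, 8.6, 5.20, 11.3 and 9.65 FPKM in the AngII libraries and 7.25, 4.85, 4.31, 3.33 and 3.44 FPKM in the vehicle libraries. AngII replicates 2, 4 and 5 lay above all 10 libraries of the other groups, and AngII replicates 1 and 3 lay among them. The difference was 0.68 (SE 0.21) for AngII minus vehicle, with a limma adjusted p of 0.115, and -0.46 (SE 0.21) for AngII plus OA minus AngII, with a limma adjusted p of 0.737. Sox17 passed the test only when AngII replicate 3 was left out, with a difference of 0.80 (SE 0.20) and a limma adjusted p of 0.0462. Its relative Sox18 was spread more widely, from 8.05 to 57.0 FPKM within AngII hearts, and averaged 39.8 ± 9.58 FPKM in AngII plus OA, 38.4 ± 19.5 FPKM in AngII and 29.5 ± 7.52 FPKM in vehicle hearts (SD, n = 5 each). Erg, the ETS factor that maintains endothelial identity, was nearly level, at 8.39 ± 0.971 FPKM in AngII plus OA, 8.52 ± 1.72 FPKM in AngII and 8.42 ± 1.25 FPKM in vehicle hearts (SD, n = 5 each). Prox1, which specifies lymphatic endothelium and is also made by cardiomyocytes, averaged 4.52 ± 0.835 FPKM in AngII plus OA, 3.57 ± 0.834 FPKM in AngII and 4.99 ± 2.22 FPKM in vehicle hearts (SD, n = 5 each).

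The adhesion molecules that capture leukocytes were low in all groups. Icam1, which binds leukocyte integrins, was at 4.97, 4.06, 3.45, 4.80 and 4.38 FPKM in the AngII plus OA libraries, 5.60, 10.3, 3.41, 6.06 and 3.74 FPKM in the AngII libraries and 4.48, 2.84, 6.72, 4.85 and 4.40 FPKM in the vehicle libraries. AngII replicate 2 was the highest library and the groups overlapped. Vcam1, which binds the integrin VLA-4, was at 5.86, 2.91, 3.49, 4.69 and 4.40 FPKM in the AngII plus OA libraries, 3.86, 5.45, 3.32, 4.27 and 4.48 FPKM in the AngII libraries and 2.36, 2.95, 4.09, 5.17 and 3.84 FPKM in the vehicle libraries. The groups overlapped, and the differences were 0.19 (SE 0.17) for AngII minus vehicle and -0.02 (SE 0.17) for AngII plus OA minus AngII. Sele, the selectin of cytokine-activated endothelium, was at 0.405, 0.690, 0.308, 0.233 and 0.250 FPKM in the AngII plus OA libraries, 0.676, 0.656, 0.206, 0.772 and 0.113 FPKM in the AngII libraries and 0.329, 0.294, 2.59, 0.590 and 0.615 FPKM in the vehicle libraries. Vehicle replicate 3 was the highest and no other library reached 1 FPKM. Selp, the selectin that endothelium and platelets store, was at 0.187, 0.131, 0.0169, 0.0256 and 0.139 FPKM in the AngII plus OA libraries, 0.189, 1.99, 0.144, 0.120 and 0.0662 FPKM in the AngII libraries and 0.0261, 0, 0.576, 0.102 and 0.148 FPKM in the vehicle libraries. AngII replicate 2 stood above all other libraries, and vehicle replicate 2 was listed at 0. The 5 platelet and megakaryocyte markers summed to 42.7 to 75.2 FPKM in AngII plus OA, 29.6 to 54.5 FPKM in AngII and 34.7 to 56.6 FPKM in vehicle hearts, with 51.0 FPKM in AngII replicate 2. Pdgfb, which recruits pericytes to new vessels, averaged 17.9 ± 3.16 FPKM in AngII plus OA, 17.0 ± 6.65 FPKM in AngII and 19.5 ± 4.74 FPKM in vehicle hearts (SD, n = 5 each), with AngII replicate 2 the lowest of all libraries at 5.72 FPKM.

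AngII replicate 2 set the outer values of 21 of the 40 genes tested. It lay above all 14 other libraries in 8 genes (20%, against 20.4% of all genes tested) and below all 14 in 13 (32.5%, against 28.7%), shares near those over all genes. The genes above were Vwf, Plvap, Pecam1, Eng, Emcn, Nos3, Icam1 and Tek, besides Selp outside the filter. The genes below were Apln, Aplnr, Sox18, Vegfa, Dll4, Kdr, Pdgfb, Nrp1, Nrp2, Icam2, Angpt2, Erg and Vegfb. Relative to the median of the other 4 AngII libraries, Plvap stood at 4.40 times and Vwf at 4.15 times, while Apln and Aplnr stood at 0.0755 and 0.0761 times. AngII replicate 4 was the highest library in 14 of 40 genes (35%, against 11.9% of all genes tested) and the lowest in 0.

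**Figure D4:**
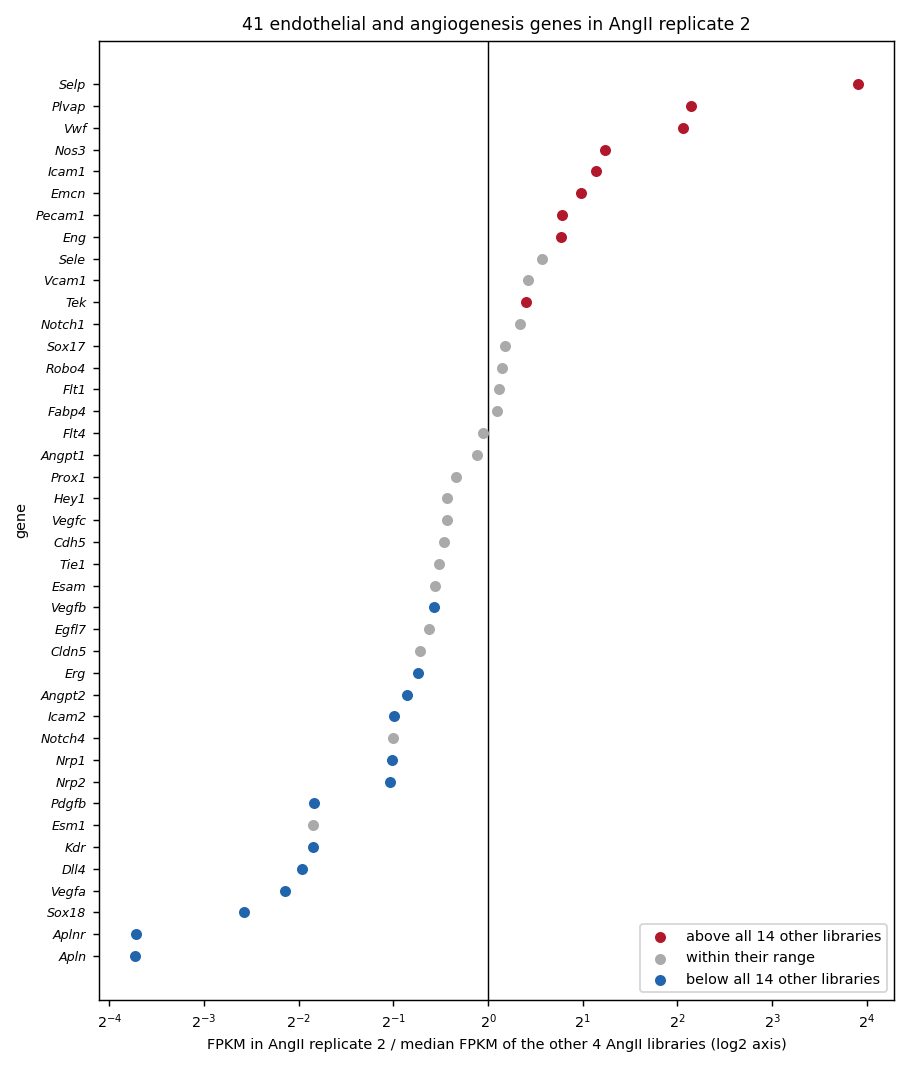
FPKM of each of the 41 genes in AngII replicate 2 divided by the median of the other 4 AngII libraries, on a log2 axis; red marks genes above all 14 other libraries of the study and blue genes below all 14. Selp, Plvap and Vwf are the highest, and Apln, Aplnr and Sox18 the lowest, at ratios of 15.0, 4.40 and 4.15 and of 0.0755, 0.0761 and 0.167.

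Without AngII replicate 2, 34 of 40 genes were positive for AngII minus vehicle, with a median of 0.23, beside 0.10 and 72.5% positive over all genes. At an unadjusted p under 0.05, limma gave 13 of them higher and none lower, against 15.8% of all genes higher, and 0 of the 40 were called at an adjusted p under 0.05. In the oleic acid comparison, AngII plus OA minus AngII, 34 of 40 were negative, with a median of -0.21, beside -0.07 and 72.4% negative over all genes. There limma gave 10 lower at an unadjusted p under 0.05, against 6.33% of all genes lower, and called 0. The 10 were Cldn5, Cdh5, Tie1, Nrp2, Notch4, Flt1, Pecam1, Dll4, Esam and Flt4. Genes not given above without AngII replicate 2 moved as well. For AngII minus vehicle, Sox18 went from 0.16 to 0.63 and Pdgfb from -0.27 to 0.05 without it. Icam1 went from 0.22 to 0.02, Nos3 from 0.38 to 0.19 and Emcn from 0.30 to 0.11. Leaving out AngII replicate 4 instead gave 24 of 40 positive for AngII minus vehicle, with a median of 0.09, beside 0.06 over all genes. For AngII plus OA minus AngII it gave 25 of 40 negative, with a median of -0.11. Relative to the vehicle mean, the 40 genes had a median log2 difference of 0.46 in AngII replicate 4, beside 0.14 over all genes tested.

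Other genes of the same pathways were counted from further lists. For AngII against vehicle hearts, 0 of 38 other endothelial genes, 0 of 21 VEGF and hypoxia genes and 0 of 10 lymphatic genes tested were called, where 1.50% of all genes were. In those lists 28 of 38, 15 of 21 and 7 of 10 were positive by sign, against 65.7% of all genes. At an unadjusted p under 0.05, limma gave 14, 5 and 4 of them higher and 0, 0 and 1 lower. Over all genes tested those shares were 13.3% higher and 3.29% lower. Ly6c1, a surface protein of heart microvessels, averaged 248 ± 29.7 FPKM in AngII plus OA, 314 ± 67.7 FPKM in AngII and 191 ± 68.9 FPKM in vehicle hearts (SD, n = 5 each), and Aqp1, the endothelial water channel, averaged 195 ± 30.7 FPKM in AngII plus OA, 306 ± 100.3 FPKM in AngII and 205 ± 50.8 FPKM in vehicle hearts (SD, n = 5 each). Neither passed, with limma adjusted p of 0.0850 for Ly6c1 and 0.276 for Aqp1 in AngII against vehicle hearts. The oxygen-sensing genes Egln1, a prolyl hydroxylase, and Epas1, a hypoxia-inducible factor, differed by -0.18 (SE 0.16) and 0.15 (SE 0.09) between AngII and vehicle hearts. Of the lymphatic genes, the chemokine Ccl21a differed by -0.01 (SE 0.23) and the hyaluronan receptor Lyve1, which macrophages also make, by 0.78 (SE 0.31).

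Genes of 3 further lists rose in AngII against vehicle hearts in 4 cases, and none of those lists held a gene that fell. Over all genes tested, 1.27% were called higher and 0.236% lower. In the list of tip cell and sprouting genes 2 of 17 tested rose, the basement membrane collagens Col4a1 and Col4a2. Col4a2 was at 42.6, 58.9, 52.2, 67.0 and 30.3 FPKM in the AngII plus OA libraries, 91.6, 67.2, 68.8, 97.2 and 101 FPKM in the AngII libraries and 52.3, 47.6, 51.8, 35.3 and 38.5 FPKM in the vehicle libraries. Every AngII library lay above every AngII plus OA library, narrowly at the nearest pair, and above every vehicle library, while AngII plus OA and vehicle hearts overlapped. Col4a1 differed by 0.90 (SE 0.21; limma adjusted p = 0.0388) and Col4a2 by 0.90 (SE 0.20; limma adjusted p = 0.0348) for AngII minus vehicle, and by -0.81 (SE 0.21) and -0.78 (SE 0.20) for AngII plus OA minus AngII, where neither passed (limma adjusted p of 0.706 for each). Serpinf1, an inhibitor of vessel growth, was the 1 of 15 angiogenesis inhibitors and guidance genes that rose, by 0.99 (SE 0.24; limma adjusted p = 0.0488). Itgam, an integrin of macrophages and neutrophils, was the 1 of 14 other adhesion genes, at 0.69 (SE 0.16; limma adjusted p = 0.0396). Beside Itgam, 4 of 11 macrophage markers were called, and their sum was 348 to 594 FPKM in AngII plus OA, 463 to 691 FPKM in AngII and 283 to 401 FPKM in vehicle hearts. Beside the collagens and Serpinf1, 3 of 9 fibroblast markers were called, and their sum was 956 to 2022 FPKM in AngII plus OA, 1319.5 to 1837 FPKM in AngII and 833 to 1495 FPKM in vehicle hearts. The part of these cells in the 4 calls was not tested. The calls stayed in few of the 10 fits that left out 1 of the compared libraries: 2 for Serpinf1 and 3 for Col4a1, Col4a2 and Itgam. With all libraries kept, the 4 calls were also lost with no filter on low values, after quantile normalization, with mitochondrially encoded genes left out of the scaling and with the replicate block, and the highest limma adjusted p over the alternative settings was 0.0908 for Col4a1, 0.0827 for Col4a2, 0.112 for Itgam and 0.116 for Serpinf1. None of these lists had a called gene in either oleic acid comparison.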

How the data were processed

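The authors deposited 1 table of FPKM for 15 libraries, made with HISAT2 2.0.4 and build mm8 per the submitters' processing notes, from oligo-dT selected mRNA read on a HiSeq2000 per the labels' protocols. Which program made the FPKM, with which annotation and strand setting, is not given in the sources used here. FPKM are not counts, so limma 3.58.1 (R 4.3.3), with a mean-variance trend, was run on log2(FPKM + 1) over 13121 genes with a mean of at least 0.5 FPKM, with 3 groups of 5 in 1 fit and Benjamini-Hochberg adjustment over all genes. Fold changes on this scale understate those of low genes. The p-values measure the spread between libraries that the labels call biological replicates, and nothing used here says how many mice each holds. The members and lists were chosen with earlier results of these data known.

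Values per library are given for genes called in any comparison, for the 5 with the smallest p in each, and for 18 genes chosen by their role; others are given by level and range. From each further list, up to 6 called genes are named, or the 2 most abundant where none was called, and Col4a2, chosen after its values were seen, is given per library. The result of 1 further list is not reported here. Whole reads were sought from the FPKM steps with summed exon lengths of GENCODE M21, and no count test was run. Some same-numbered libraries deviated together and others did not, so no pairing was used. Alternatives changed the pseudocount, filter, scaling, libraries and replicate block, and the script was tested on simulated data. Python 3.11.15, pandas 2.3.3 and matplotlib 3.10.9 were used for the depth, promoters and figures.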

Additional observations from a re-analysis of the deposited data

Results flagged for a closer look

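In 13 of 123 groups of 5 libraries, 1 library stood away from the other 4 by more than Dixon's critical gap of 0.71 of the group's range, which chance gives in about 1 group in 20. AngII replicate 2 was that library in 6 of the 13. There Pecam1 had 84.3 FPKM, where the remaining AngII libraries had 44.5 to 50.6. Vwf was at 29.8 FPKM, against 5.97 to 8.94, and Plvap was at 50.7 FPKM, against 8.30 to 15.5. Kdr was at 7.40 FPKM, against 24.6 to 29.9, and Erg was at 5.56 FPKM, against 8.63 to 9.88. Selp was at 1.99 FPKM, against 0.0662 to 0.189.

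AngII plus OA replicate 4 was the highest of its group for 3 genes. Esam was at 62.7 FPKM, where the rest of that group had 43.4 to 47.7, Nos3 at 11 FPKM, against 5.02 to 6.16, and Tie1 at 37.8 FPKM, against 24.8 to 28.2. Nrp1 was lowest in AngII plus OA replicate 3, at 5.83 FPKM, against 8.27 to 8.97. Among vehicle libraries, Aplnr was at 19.6 FPKM in replicate 2, against 5.89 to 8.72. In vehicle replicate 3, Sele was at 2.59 FPKM, against 0.294 to 0.615, and Selp at 0.576 FPKM, against 0 to 0.148.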

How the results depend on the processing

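Of 61 differences of named members, 38 kept their sign in every alternative and 23 changed it in at least 1. No member was called under any alternative except Sox17 without AngII replicate 3, so members called for AngII against vehicle ranged from 0 to 1 with a library left out. Medians of the members stayed within 1 SD between libraries (0.18), a limit about as wide as the AngII minus vehicle median of 0.19 itself. That median was 0.05 after quantile normalization, 0.10 after median shift and 0.11 after rescaling. For AngII plus OA minus AngII the median was -0.15, -0.17 and -0.23 under these scalings. With a library left out the medians ranged from 0.09 to 0.23, from -0.26 to -0.11 and from -0.05 to 0.02 for AngII minus vehicle, AngII plus OA minus AngII and AngII plus OA minus vehicle. By reads in their lowest library, Selp, Sele, Esm1 and Apln had the fewest, at 0, 9, 22 and 29. By median reads, Selp, Sele, Esm1 and Angpt2 had the fewest, at 15, 30, 67 and 206, and Apln had 382.

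All genes called for AngII against vehicle, 197 as reported, were 72 with no filter, 109 after quantile normalization (69 higher), 114 after rescaling without mitochondrially encoded genes (77 higher), 160 after shifting libraries to 1 median (103 higher) and 70 with only the 10 libraries compared, and 49 to 425 with 1 library left out (425 without AngII replicate 3, 49 without AngII replicate 5). For AngII plus OA against AngII they were 0 to 1. With a replicate block, 38 were called for AngII against vehicle and 0 members in each comparison. Correlations of same-numbered libraries ran from -0.23 to 0.21 for AngII and vehicle, from -0.22 to 0.43 for AngII plus OA and AngII and from -0.35 to 0.26 for AngII plus OA and vehicle, and 0, 2 and 1 of 5 correlated best with their own number. The counts of members not overlapping were chosen as results after seeing the data. For AngII against vehicle they were 0, 0 and 1 under quantile normalization, median shift and rescaling, beside 3.06%, 3.18% and 2.73% of all genes. Without AngII replicate 2 they were 4 for AngII against vehicle (6.55% of all genes) and 2 for AngII plus OA against AngII (2.61% of all genes, 2.28% lower).

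For AngII minus vehicle, Vegfa was -0.0421 and Dll4 -0.0403 after quantile normalization, Dll4 -0.0156 and Notch1 -0.0317 after median shift, and Dll4 -0.0139 and Notch1 -0.00488 after rescaling. Vcam1, for AngII plus OA minus AngII, was 0.0532 after quantile normalization and 0.0452 after median shift. For AngII plus OA minus vehicle, Pecam1 was -0.0387 and Tek -0.0658 after quantile normalization, Tek -0.0192 after median shift, and Pecam1 -0.0420, Flt1 -0.0432 and Tek -0.0920 after rescaling. The cause was not tested.

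With 1 library left out, signs changed within these ranges. Differences for AngII minus vehicle were -0.23 to 0.0362 for Angpt2, -0.39 to 0.39 for Aplnr, -0.0999 to 0.41 for Dll4, -0.39 to 0.0822 for Kdr, -0.0387 to 0.15 for Notch1 and -0.15 to 0.51 for Vegfa. Those for AngII plus OA minus AngII were -0.21 to 0.42 for Apln, -0.42 to 0.35 for Aplnr, -0.42 to 0.0889 for Dll4, -0.25 to 0.0571 for Esm1, -0.16 to 0.31 for Kdr, -0.12 to 0.0851 for Vcam1 and -0.13 to 0.53 for Vegfa. Those for AngII plus OA minus vehicle were -0.39 to 0.027 for Angpt1, -0.17 to 0.23 for Aplnr, -0.10 to 0.11 for Dll4, -0.0121 to 0.13 for Flt1, -0.19 to 0.0637 for Icam1, -0.16 to 0.00683 for Kdr, -0.24 to 0.0173 for Nos3, -0.0162 to 0.13 for Pecam1, -0.0412 to 0.33 for Plvap and -0.0587 to 0.0708 for Tek.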
